A study of Mus musculus with 4 samples.

Results

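The transcripts described here come from 10 genes of the bone morphogenetic protein (BMP) pathway: the target genes Id1, Id2, Id3 and Id4, the ligand genes Bmp2, Bmp4 and Bmp7, the receptor gene Bmpr1a, and the inhibitory Smad genes Smad6 and Smad7. They were taken by symbol from 45803 symbols in an RNA sequencing table of newborn mouse epidermis, and all 10 were found. BMPs are secreted ligands that bring together type I and type II receptor kinases, and the type I receptor phosphorylates Smad1, Smad5 and Smad9, which enter the nucleus with Smad4. The Id genes are among the most direct targets of this signal. Their products are helix-loop-helix proteins without a DNA-binding region that pair with E proteins and keep them from DNA. In skin, BMP signalling is known for its part in hair follicle formation and in the differentiation of keratinocytes.

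The study compared epidermal keratinocytes of mice at postnatal day 0. The control animals were K14Cre,Mettl14F/+ and the conditional knockout (cKO) animals were K14Cre,Mettl14F/F, so both groups carried Cre recombinase under the keratin 14 promoter and at least 1 floxed Mettl14 allele. The Mettl14 protein is part of the methyltransferase that places N6-methyladenosine (m6A) on RNA. Cells that never used the keratin 14 promoter are not targeted by this Cre, and the control is heterozygous in Cre-expressing cells. There were 2 libraries in each group, numbered 1 and 2 in the labels, and nothing states that they are separate animals, so p-values speak only of how far these libraries spread, a spread that may be technical.

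Values are FPKM, reads or fragments scaled by the length of the transcript and the depth of the library, summed over the transcripts of a symbol. The low values imply 16893652 to 25698636 reads or fragments a library, and the libraries numbered 2 were the deeper ones in both groups. Mettl14 was listed at 7.00 and 6.40 FPKM in control 1 and 2 and at 5.89 and 3.79 in cKO 1 and 2, lower in both cKO libraries, and its log2 difference of -0.42 ± 0.26 (SE) did not pass limma's test (adjusted p = 0.959). Keratinocyte markers were abundant in every library, although Krt1 was listed at 0 throughout. Markers of melanocytes, leukocytes and fibroblasts were also present, while all 6 endothelial markers stayed under 1 FPKM in every library. In bulk RNA, fewer cells of a type and less RNA per cell cannot be told apart.

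The control region of Id2 is shown because Id2 was the member with the largest genotype difference. The 250 bases before its start were read from RefSeq (GRCm38.p6, chr12:25096093-25096342, minus strand) and are written 5′ to 3′, with capitals for GGCGCC, a GC-rich element that BMP-activated Smads can bind.
Id2 promoter: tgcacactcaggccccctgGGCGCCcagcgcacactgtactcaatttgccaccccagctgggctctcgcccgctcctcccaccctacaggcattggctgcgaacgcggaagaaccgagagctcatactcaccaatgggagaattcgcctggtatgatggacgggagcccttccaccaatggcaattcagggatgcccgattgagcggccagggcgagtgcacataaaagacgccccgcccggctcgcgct

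GGCGCC and the palindromic Smad element GTCTAGAC were searched on both strands in windows of 300 bases, of which 250 lie before the start. RefSeq windows were used for 6 members: Id2, Id3, Id4, Bmp4, Bmpr1a and Smad6. GGCGCC was present in 3 of them, starting 231 bases before the start of Id2, 148 before that of Id4 and 198 before that of Bmpr1a, and 11.9% of 32851 windows held it. These windows are rich in GC, at 60.0% to 79.3% against a median of 52.7% over all windows. Smad6 alone held GTCTAGAC, as did 0.213% of all windows, and it lay across the start site. The following 30 bases show it in capitals (GRCm38.p6, chr9:64022045-64022074, minus strand).
Smad6 start site: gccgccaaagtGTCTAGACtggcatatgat

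A second set of sequences concerns m6A itself, which is written within a short consensus that most often reads GGACT. No m6A was measured in this part of the data, so these are letters and not modified sites. In the most abundant transcript of each member, GGACT occurred 3 times in Id1 (3.21 per kb), 4 times in Id2 (3.15 per kb) and 3 times in Id3 (2.35 per kb), more often per length than in 98.3%, 98.1% and 92.8% of 11705 protein-coding genes tested, whose median was 1.06 per kb. Bmp4 had 2.42 per kb, and the other 6 members had 0.34 to 1.13. The Id3 match at base 291 of the transcript also lies in the window searched above as bases before the RefSeq start. The GENCODE transcript of Id3 begins further upstream than that start. The matches in Id1 and Id2 are given in 21 bases each from GENCODE M21 (GRCm38), since these genes had the highest densities. They were also chosen for the opposite signs of their estimated differences, although the sign for Id1 turned without control 1.
Id1 base 433 of the transcript, coding: gaggccggGGACTgcctgtcc
Id1 base 561 of the transcript, 3′ UTR: gaccagatGGACTccagccct
Id1 base 646 of the transcript, 3′ UTR: cagccaccGGACTcttggcgg
Id2 base 319 of the transcript, coding: atcgccctGGACTcgcatccc
Id2 base 503 of the transcript, 3′ UTR: gcatttggGGACTtttttttt
Id2 base 684 of the transcript, 3′ UTR: tccggcctGGACTgtgatacc
Id2 base 987 of the transcript, 3′ UTR: aaccttgtGGACTctttaatt

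Over the 4 libraries, Bmpr1a was the most abundant member, with a mean of 49.9 FPKM, followed by Id1 (37.2), Bmp7 (30.8), Id2 (23.5), Id3 (21.2), Id4 (11.0), Bmp2 (7.05), Bmp4 (6.13), Smad7 (4.43) and Smad6 (0.96). Neighbours in this order had overlapping ranges except at 3 steps: every value of Id3 lay above every value of Id4, and likewise Id4 above Bmp2 and Smad7 above Smad6. Bmpr1a stood above 89.7% of the 13817 genes tested and Smad6 above 1.4%, close to the filter of 1 FPKM in at least 2 libraries, which it passed only through the libraries numbered 2. All 10 members passed that filter.

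No member passed the threshold between genotypes in limma's moderated test on log2(FPKM + 1), on which changes of genes with low values come out too small. Of 10 members, 0 had a Benjamini-Hochberg adjusted p under 0.05, against 0% of all 13817 genes tested, and 0 had an unadjusted p under 0.05, against 4.96% of all genes. Limma-voom on recovered reads also called 0 members. With the replicate number as a block, limma called 1 member, Id2, and 6.51% of all genes. The median log2 difference was 0.07 over the members and -0.03 over all genes. No member differed by more than 1 on this scale in either direction. The 95% intervals reached from -1.22 at the lowest bound (Id2) to 0.97 at the highest (Smad6), so changes of about this size are not shown to be absent.

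**Figure D1:**
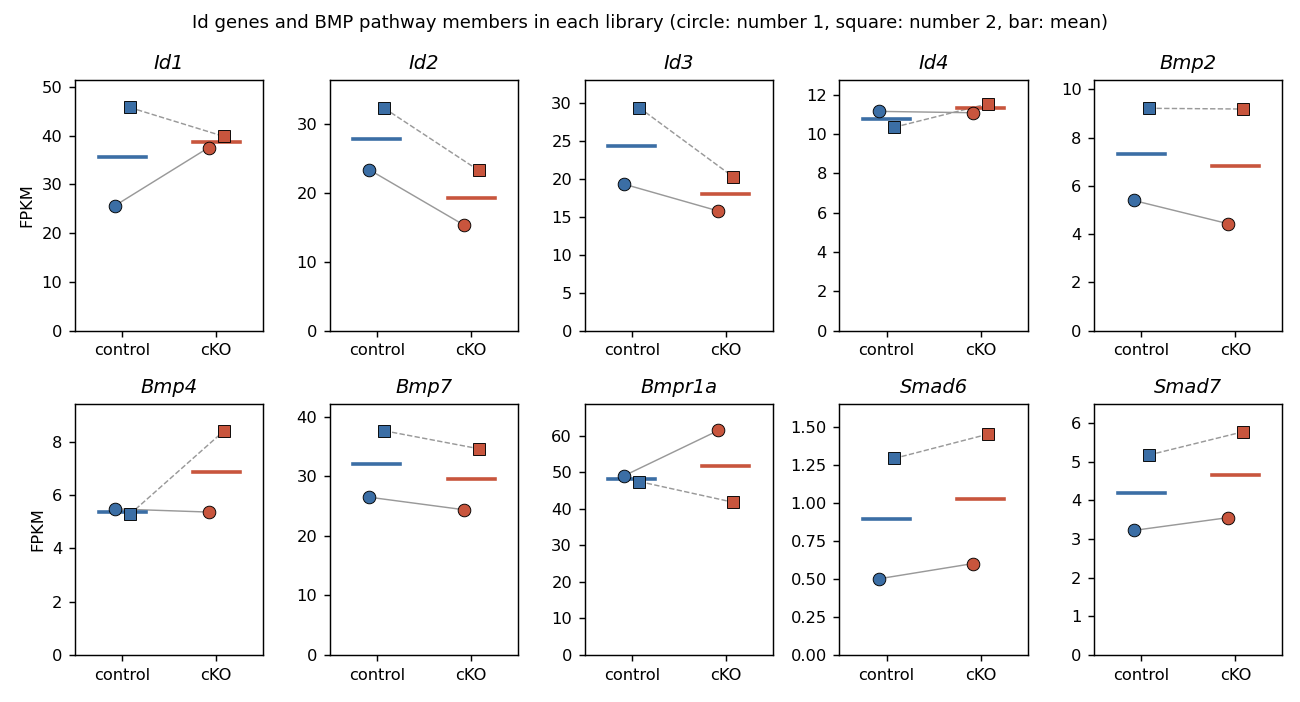
Level of each of the 10 genes in FPKM (vertical axes, from 0) in the 2 control (blue) and 2 cKO (red) libraries; circles are number 1, squares number 2, horizontal bars the group means, and grey lines join libraries of the same number. Id2 is the only panel in which both cKO libraries lie below both control libraries, and there cKO 2 (23.22) lies just under control 1 (23.29).

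The estimated differences of the Id genes did not share a sign, and none of the 4 passed the test with genotype as the only term. Whether these differences themselves differ among the 4 genes was not tested. The values of Id2 lay lower in cKO, those of Id3 lay lower within each replicate number, those of Id1 differed in sign between the 2 numbers, and those of Id4 were close together. Summed over the 4 genes, Id transcripts came to 79.4 and 117.8 FPKM in control 1 and 2 and to 79.8 and 94.9 in cKO 1 and 2, so the groups overlapped. Id1 held 32.3% and 38.9% of this sum in the controls and 47.1% and 42.0% in cKO, and Id2 held 29.3% and 27.3% against 19.2% and 24.5%.

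Id2 (ENSMUSG00000020644, GRCm38 chromosome 12, 25093801 to 25096092) encodes an Id protein that is also needed for the development of Langerhans cells and innate lymphoid cells. It was listed at 23.29 and 32.20 FPKM in control 1 and 2 and at 15.33 and 23.22 in cKO 1 and 2, from 329 to 957 reads a library. Both cKO libraries lay below both control libraries, as they did for 1 of 10 members and for 16.6% of all genes tested. The group means were 27.7 ± 6.30 and 19.3 ± 5.58 FPKM (SD, n = 2 each). Its log2 difference was -0.51 ± 0.29 (SE; 95% interval -1.22 to 0.19; limma adjusted p = 0.959), with -0.57 within number 1 and -0.45 within number 2. Id2 passed only with the replicate number as a block (limma adjusted p = 0.0426), and the labels do not say that the numbers pair the libraries. The size of the Id2 difference rested on single libraries, at -0.74 without control 1, -0.29 without control 2, -0.23 without cKO 1 and -0.80 without cKO 2. The sign was the same in each, as it must be where the groups do not overlap.

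Summed marker levels of 5 cell types lay lower in both cKO libraries than in both controls, as the values of Id2 did: leukocytes, basal keratinocytes, melanocytes, fibroblasts and Schwann cells. All 5 leukocyte markers (Ptprc, Cd3e, Cd207, Cd74 and Lyz2) were lower in cKO within both numbers, where 37.6% of all genes tested were, and their summed level was 241.1 and 300.3 FPKM in control 1 and 2 and 139.3 and 219.5 in cKO 1 and 2. Cd207, which marks Langerhans cells, was listed at 2.18 and 2.09 in the controls and 0.62 and 1.93 in cKO. These values rest on 58 and 74 reads in control 1 and 2 and on 16 and 75 in cKO 1 and 2. Its log2 difference was -0.97 within number 1 and -0.08 within number 2. The 5 basal keratinocyte markers (Krt5, Krt14, Krt15, Trp63 and Itga6) were also lower in cKO within both numbers, with sums of 3761 and 4811 in the controls and 2404 and 3729 in cKO. Of the melanocyte markers 4 of 5 were lower within both numbers. Their sums were 483.2 and 423.0 in control 1 and 2 and 372.1 and 398.7 in cKO 1 and 2. The lower melanocyte sum rested on Dct, at 239.31 and 196.81 in control 1 and 2 and 174.07 and 166.48 in cKO 1 and 2. Without Dct the melanocyte sums overlapped between the genotypes. Of the fibroblast and dermal papilla markers 3 of 7 were lower within both numbers, and 1 was higher. Their sums were 118.3 and 115.4 in control 1 and 2 and 86.42 and 94.09 in cKO 1 and 2. The lower fibroblast sum rested on Dcn, at 55.69 and 68.23 in control 1 and 2 and 33.96 and 40.31 in cKO 1 and 2. Without Dcn the fibroblast sums overlapped between the genotypes. The sums of the 3 Schwann cell markers were 14.69 and 13.77 against 11.28 and 7.8. The sums of hair follicle and suprabasal keratinocyte markers overlapped between the genotypes. The part of these shifts in the difference of Id2 was not tested.

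Id3 (ENSMUSG00000007872, chromosome 4, 136143497 to 136145755) was listed at 19.33 and 29.43 FPKM in control 1 and 2 and at 15.79 and 20.28 in cKO 1 and 2. Control 1 lay below cKO 2, so the groups overlapped, while each cKO library lay below the control of its own number. The log2 difference was -0.40 ± 0.28 (limma adjusted p = 0.959; 95% interval -1.08 to 0.28), with -0.28 and -0.52 within numbers 1 and 2. It ranged from -0.69 without control 1 to -0.11 without control 2, and was -0.23 without cKO 1. The marker sums given for Id2 lay the same way, and their part was not tested.

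Id1 (ENSMUSG00000042745, chromosome 2, 152736251 to 152737410) was listed at 25.61 and 45.82 FPKM in control 1 and 2 and at 37.59 and 39.88 in cKO 1 and 2. Both cKO values fell between the control values, which differed by 0.82 on the log2 scale. The difference was 0.17 ± 0.31 (limma adjusted p = 0.965), made up of 0.54 within number 1 and -0.20 within number 2, and it was -0.24 without control 1 and 0.58 without control 2. Its direction therefore rests on which control library is kept. The main Id1 transcript, with 2 exons, carried 89.6% to 96.6% of the gene's FPKM, and a single-exon transcript across the same locus was listed at 2.67 and 3.47 in the controls and 1.29 and 2.99 in cKO.

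Id4 (ENSMUSG00000021379, chromosome 13, 48261228 to 48266026) had the smallest standard error of the members. It was listed at 11.16 and 10.35 FPKM in control 1 and 2 and at 11.09 and 11.55 in cKO 1 and 2, with 721 to 1142 reads a library. The log2 difference was 0.07 ± 0.20 (limma adjusted p = 0.976) with a 95% interval from -0.42 to 0.55. On the log2 scale its libraries numbered 2 differed from those numbered 1 by -0.02, beside 0.45 to 0.51 for Id1, Id2 and Id3.

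**Figure D2:**
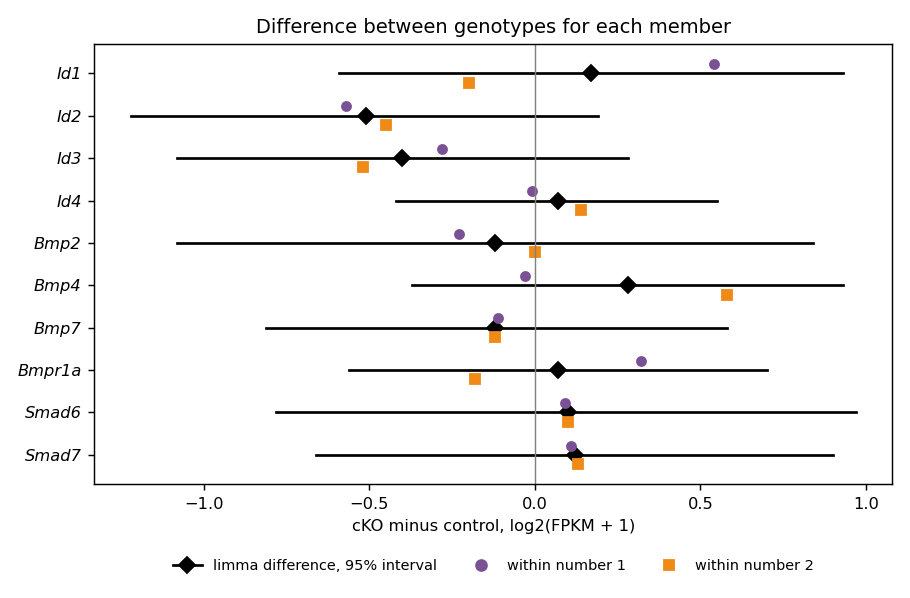
Log2 difference, cKO minus control, on the log2(FPKM + 1) scale for each gene; black diamonds are the limma estimates with their 95% intervals, purple circles the difference within number 1 and orange squares that within number 2. Every interval includes 0, and Id2 and Id3 are the 2 genes whose within-number values are both below -0.2.

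Among the ligands, the groups overlapped for Bmp2, Bmp4 and Bmp7, and Bmp4 was high in a single cKO library. Bmp7 (ENSMUSG00000008999, chromosome 2, 172868012 to 172940321), the most abundant of the BMP ligand genes measured here, was listed at 26.46 and 37.60 FPKM in control 1 and 2 and at 24.37 and 34.60 in cKO 1 and 2. Within each number the cKO value was 0.921 and 0.92 times the control value. The log2 difference was -0.12 ± 0.28 (limma adjusted p = 0.972); it turned to 0.13 without control 2 and likewise without cKO 1.

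Bmp2 (ENSMUSG00000027358, chromosome 2, 133552159 to 133562885) was listed at 5.39 and 9.21 FPKM in control 1 and 2 and at 4.43 and 9.18 in cKO 1 and 2. The libraries grouped by number and not by genotype, with both libraries numbered 2 above both numbered 1. The log2 difference was -0.12 ± 0.39 (limma adjusted p = 0.98) and turned to 0.22 without control 2 and to 0.33 without cKO 1.

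Bmp4 (ENSMUSG00000021835, chromosome 14, 46383520 to 46390669), a ligand of the dermal papilla and early follicle, was listed at 5.48 and 5.27 FPKM in control 1 and 2 and at 5.36 and 8.40 in cKO 1 and 2. Only cKO 2 stood apart. The log2 difference of 0.28 ± 0.26 (limma adjusted p = 0.959) was -0.003 without cKO 2 and 0.56 without cKO 1. With only its most abundant transcript counted it was 0.04, since part of the Bmp4 signal sat in a shorter coding transcript of 3 exons, listed at 1.02 and 0.07 in the controls and 1.79 and 1.71 in cKO. That transcript rests on 29, 3, 49 and 72 reads in control 1, control 2, cKO 1 and cKO 2.

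Of 9 other ligand genes, only Bmp3 passed the filter. Bmp3, whose product opposes the osteogenic BMPs, was listed at 3.52 and 2.20 FPKM in the controls and 3.21 and 2.03 in cKO, a log2 difference of -0.09 ± 0.30 (limma adjusted p = 0.981). Bmp5, Bmp6, Bmp8a, Bmp8b, Gdf5, Gdf6 and Gdf7 stayed under 1 FPKM in every library, and Bmp10 was listed at 0 in all 4. Gdf7 was the untested ligand gene whose groups did not overlap, at 0.04 and 0 in the controls and 0.08 and 0.06 in cKO, on at most 2 reads.

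Bmpr1a (ENSMUSG00000021796, chromosome 14, 34410734 to 34503341) encodes the type I receptor through which much of BMP signalling in the follicle passes. It was listed at 49.01 and 47.41 FPKM in control 1 and 2 and at 61.38 and 41.74 in cKO 1 and 2, so the cKO values lay on either side of the control values. The log2 difference was 0.07 ± 0.26 (limma adjusted p = 0.984) and became -0.20 without cKO 1 and 0.34 without cKO 2. A coding transcript of 13 exons held 78.7% to 89.9% of the FPKM, with less in the libraries numbered 2 (81.0% and 78.7%) than in those numbered 1 (89.9% and 85.5%).

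Among 9 other receptors and co-receptors, 8 were tested and 0 passed (limma adjusted p between 0.959 and 0.999). The most abundant were Bmpr2, the type II receptor, at 30.94 and 22.20 FPKM in the controls and 33.64 and 20.14 in cKO, and Rgmb, a co-receptor, at 29.27 and 31.98 against 28.97 and 30.06. Neither separated the genotypes. Both cKO libraries lay below both control libraries for 3 of the 8, the type I receptor genes Bmpr1b, Acvr1 and Acvrl1, where 16.6% of all genes lay below. They lay above them for 1, the type II receptor gene Acvr2b, where 16.2% of all genes lay above. Bmpr1b was listed at 2.16 and 2.47 FPKM in the controls and 1.40 and 1.34 in cKO (log2 difference -0.48 ± 0.24), Acvr1 at 5.63 and 7.06 against 5.08 and 5.34 (-0.24 ± 0.22), and Acvrl1 at 1.53 and 1.92 against 0.97 and 1.39 (-0.32 ± 0.26). Acvr2b was listed at 1.15 and 1.96 against 2.06 and 2.19 (0.31 ± 0.27). These are low values, with 50 to 121 reads a library for Acvrl1 and 42 to 116 for Acvr2b.

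**Figure D3:**
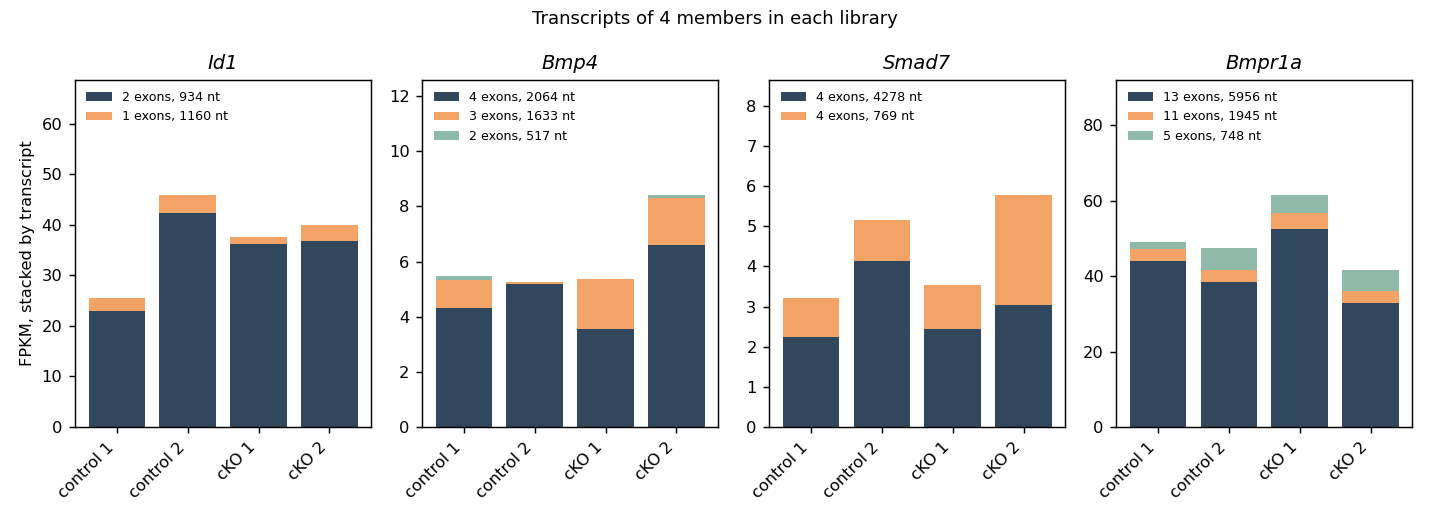
FPKM of each transcript (stacked bars, from 0) of Id1, Bmp4, Smad7 and Bmpr1a in control 1, control 2, cKO 1 and cKO 2, named by exon number and length in nucleotides; transcripts listed at 0 in all libraries are left out. The longest transcript is the main one except for Id1, and the 769 nt Smad7 transcript stands at 2.72 FPKM in cKO 2 and at 0.97 to 1.12 in the other libraries.

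Smad6 and Smad7 encode inhibitory Smads, which are induced by the pathway and restrain it. Smad7 (ENSMUSG00000025880, chromosome 18, 75367529 to 75395935) was listed at 3.22 and 5.17 FPKM in control 1 and 2 and at 3.55 and 5.77 in cKO 1 and 2. Each cKO library lay slightly above the control of its number, and the groups overlapped. The log2 difference of 0.12 ± 0.31 (limma adjusted p = 0.973) turned to -0.13 for the most abundant transcript alone and to -0.10 with limma-voom on recovered reads of all transcripts. The main transcript of 4278 nt was listed at 2.25 and 4.13 in the controls and 2.43 and 3.05 in cKO, while a transcript of 769 nt was listed at 0.97 and 1.04 in the controls and 1.12 and 2.72 in cKO, on 13, 19, 15 and 54 reads. The pooled difference also turned to -0.15 without control 1 and -0.17 without cKO 2.

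Smad6 (ENSMUSG00000036867, chromosome 9, 63953076 to 64022059) was the least abundant member, at 0.50 and 1.29 FPKM in control 1 and 2 and 0.60 and 1.45 in cKO 1 and 2, from 26 to 111 reads. Its libraries grouped by number. The log2 difference was 0.10 ± 0.36 (limma adjusted p = 0.984), and it turned to -0.21 without control 1 and likewise without cKO 2. Its 95% interval reached from -0.78 to 0.97.

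The Smads that carry the signal were more abundant. Of Smad1, Smad5, Smad9 and Smad4, 3 were tested and 0 passed. Smad5 was listed at 33.84 and 33.26 FPKM in the controls and 31.16 and 28.66 in cKO, and Smad4, the common partner, at 26.07 and 30.24 against 21.48 and 25.57. Their log2 differences were -0.16 ± 0.20 and -0.25 ± 0.21. Both genes had all cKO libraries below all control libraries, as did 16.6% of all genes tested. Smad1 was higher in cKO within both numbers, at 18.75 and 25.57 against 24.32 and 31.62 (0.33 ± 0.25; limma adjusted p = 0.959 for each of the 3). Smad9 stayed under the filter, at 0.17 and 0.14 against 0.06 and 0.04, on 5 to 18 reads.

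Secreted antagonists were represented by a few abundant genes. Of 13 genes of antagonists and other modulators that act outside the cell, 6 were tested and 0 passed (limma adjusted p between 0.959 and 0.999). Sostdc1, a BMP and Wnt antagonist, was the most abundant, at 64.16 and 64.30 FPKM in the controls and 81.59 and 82.66 in cKO. Its replicates were close together and both cKO libraries were above both controls, with a log2 difference of 0.35 ± 0.21 (0.34 and 0.36 within the numbers). Twsg1, a chordin-binding modulator, was listed at 34.23 and 33.80 against 31.36 and 29.01 (-0.17 ± 0.19), with the cKO libraries below the controls. The classical antagonist genes stayed under the filter and were not tested, with Nog at 0.07 and 0.13 in the controls and 0.28 and 0.21 in cKO (2 to 9 reads) and Chrd at 0.24 in both controls and 0.44 and 0.46 in cKO (14 to 43 reads). Bmper, another secreted BMP binder, was listed at 0.08 and 0.09 against 0.14 and 0.15. These 3 had both cKO libraries above both controls at levels of few reads. Of all genes tested, 16.2% lay above in this way, as Sostdc1 did, and 16.6% below, as Twsg1 did. No such share was computed for genes under the filter.

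Of the 5 regulators within the cell or its membrane, all were tested and 0 passed. The ubiquitin ligase gene Smurf2 was listed at 26.01 and 25.28 FPKM in the controls and 24.51 and 22.99 in cKO (log2 difference -0.11 ± 0.19). Its cKO libraries lay below the controls, as for 16.6% of all genes tested. Skil, a Smad co-repressor gene, was listed at 27.05 and 21.19 against 28.25 and 18.26. Bambi, the gene of a decoy receptor, was low, at 1.13 and 1.52 against 1.48 and 2.56 (0.36 ± 0.29; limma adjusted p = 0.959).

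Of 7 transcription factor genes known to respond to BMP in skin, 6 were tested and 0 passed, with log2 differences from -0.38 (Msx1) to 0.33 (Dlx3). Gata3 was the most abundant, at 19.36 and 32.95 FPKM in the controls and 21.84 and 29.23 in cKO, and Dlx3 was next, at 9.58 and 18.34 against 11.62 and 24.68. Foxn1, a regulator of hair shaft differentiation, was the gene of this group whose cKO libraries both lay above the controls, as for 16.2% of all genes tested. It was listed at 5.59 and 6.65 against 7.90 and 7.23 (0.27 ± 0.21, limma adjusted p = 0.959).

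The E protein genes, whose products the Id proteins bind, were all abundant. Tcf12 was listed at 58.84 and 49.90 FPKM in the controls and 50.38 and 38.26 in cKO (log2 difference -0.30 ± 0.24), Tcf3 at 27.61 and 44.54 against 25.68 and 38.72 (-0.15 ± 0.32), and Tcf4 at 30.58 and 24.08 against 31.21 and 20.58 (-0.09 ± 0.27). Tcf12 and Tcf3 were lower in cKO within both numbers, and 0 of 3 passed limma's test.

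Taking the 50 other pathway genes as one list, 32 were tested, 0 had an adjusted p under 0.05 and 0 an unadjusted p under 0.05. Their median log2 difference was -0.06, beside 0.07 for the members and -0.03 for all genes tested. Both cKO libraries lay below both controls for 7 of the 32 and above them for 3, against 16.6% and 16.2% of all genes. Within both numbers, 15 of 32 were lower and 8 higher in cKO, against 37.6% and 31.8% of all genes. For the members the same counts were 4 lower (Id2, Id3, Bmp7 and Bmp2, the last by 0.03 FPKM in number 2) and 2 higher (Smad6 and Smad7) of 10, near the shares over all genes.

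**Figure D4:**
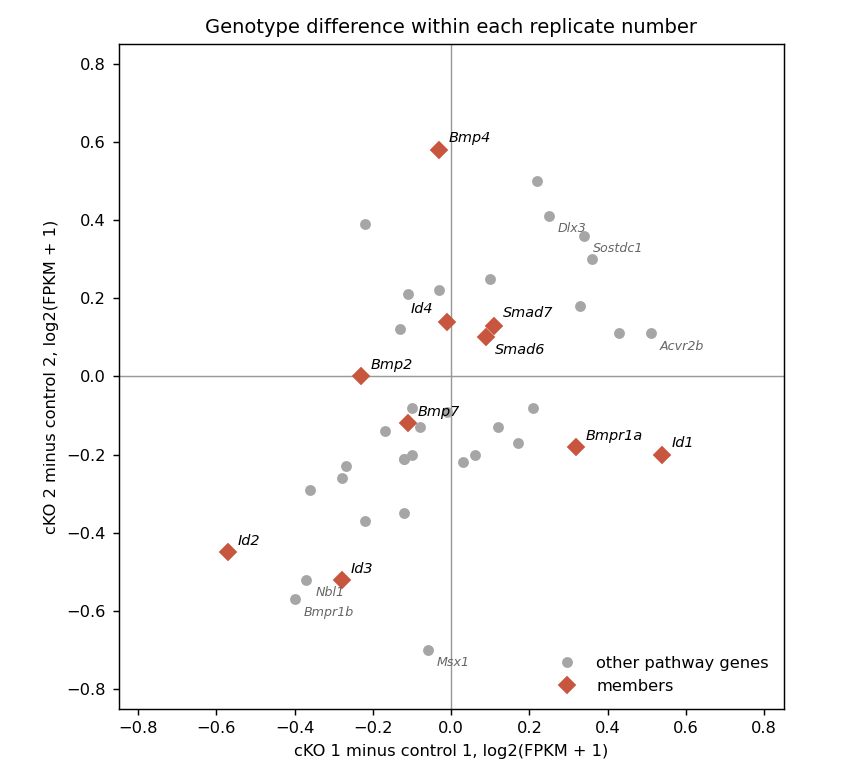
Log2 difference within number 1 (horizontal, cKO 1 minus control 1) against that within number 2 (vertical, cKO 2 minus control 2), on the log2(FPKM + 1) scale; red diamonds are the 10 members and grey points the 32 other pathway genes tested. Id2 and Id3 lie in the lower left with Bmpr1b and Nbl1, while Id1 and Bmpr1a lie at lower right and Bmp4 at the top, where the 2 numbers differ.

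The members varied more by replicate number than by genotype, as did genes in general. Their median absolute log2 differences were 0.48 by number and 0.12 by genotype, beside 0.39 and 0.17 for the other pathway genes tested and 0.30 and 0.20 for all genes tested. Both libraries numbered 2 lay above both numbered 1 for 6 of 10 members (Id1, Id3, Bmp2, Bmp7, Smad6 and Smad7), against 32.8% of all genes tested, and below them for Bmpr1a, against 24.6%. The median difference, number 2 minus number 1, was 0.48 on the log2 scale for the members, 0.21 for the other pathway genes and 0.08 for all genes. It was 0.79 for Bmp2, 0.61 for Smad6 and 0.56 for Smad7. In absolute size the difference by number exceeded that by genotype in 7 of 10 members, near the shares of 65.6% for the other pathway genes and 62.5% for all genes.

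Several responsive transcription factors shared that direction, with 4 of the 6 tested (Msx1, Msx2, Dlx3 and Gata3) higher in both libraries numbered 2. Hair follicle markers did so as well, in 6 of 7, where 32.8% of all genes tested did. Their summed level was 1216 and 1394 FPKM in control 1 and 2 and 1020 and 1335 in cKO 1 and 2. Most of that sum was Krt17, the marker that overlapped between the numbers. Krt17 was listed at 1086.90 and 1102.76 in the controls and 880.83 and 922.90 in cKO. Krt71, an inner root sheath keratin, was listed at 45.76 and 133.22 in the controls and 63.11 and 212.82 in cKO. Suprabasal keratinocyte markers went the other way, lower in both libraries numbered 2 for 3 of the 4 tested, against 24.6% of all genes tested. Their sums were 19740 and 8060 in control 1 and 2 and 15640 and 8243 in cKO 1 and 2. Krt10, the most abundant of these, was listed at 15341.64 and 5382.20 in the controls and 12142.03 and 6216.68 in cKO. The part of these markers, and of depth, in the members' difference by number was not tested.

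**Figure D5:**
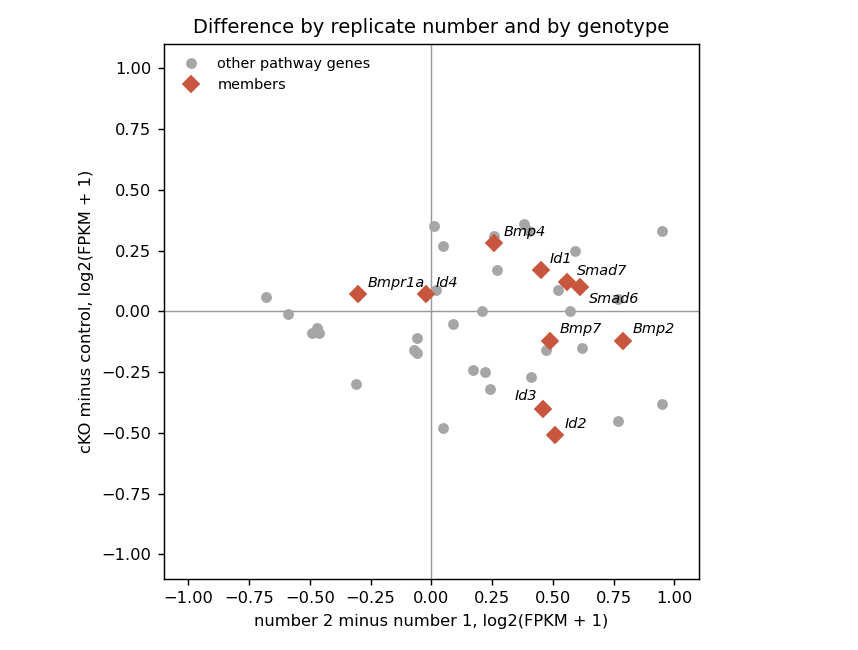
Log2 difference by replicate number (horizontal, number 2 minus number 1, mean of both genotypes) against the difference by genotype (vertical, cKO minus control), on the log2(FPKM + 1) scale with equal axes; red diamonds are the 10 members and grey points the 32 other pathway genes tested. The members spread further along the horizontal axis, from -0.30 (Bmpr1a) to 0.79 (Bmp2), than along the vertical one, from -0.51 (Id2) to 0.28 (Bmp4).

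The main transcripts of Id1 to Id4 and Bmp2 have 2 or 3 exons, and protein-coding genes with 1 to 3 exons had a median log2 difference of 0.15 over 1715 genes, with Id1, Id2, Id3, Id4 and Bmp2 at 0.17, -0.51, -0.40, 0.07 and -0.12. Protein-coding genes with at least 2 GGACT per kb had a median of 0.08 over 1449 genes and the rest of -0.03 over 10256. The 4 members at that density were Id1, Id2, Id3 and Bmp4, at 0.17, -0.51, -0.40 and 0.28. Id1 was at -0.24 without control 1 and at 0.58 without control 2. Bmp4 was at -0.003 without cKO 2 and at 0.56 without cKO 1. The part of exon number or of GGACT in the members' differences was not tested.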

How the data were processed

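The authors deposited values per transcript, scaled by length and depth, which were taken as FPKM from the values, since the header names no unit. Value times length, summed and divided by 1000, came to 1015550 to 1021998 a library; FPKM and RPKM cannot be told apart. The submitters' processing notes name fastp, HISAT2, HTSeq and GRCm38, without roles or versions. Strand and the splitting of reads among transcripts are not stated in these sources. Columns named WT were matched to the control libraries by group and number.

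Values of 110295 transcripts were summed per symbol, with 162 date-like symbols restored by transcript ID. The 13817 genes that reached 1 FPKM in 2 or more libraries were tested with limma 3.58.1 (R 4.3.3), with a mean-variance trend, genotype as the only term, and Benjamini-Hochberg adjustment at 0.05; 2 residual degrees of freedom remained. Implied depth came from steps in the low values of transcripts of 300 to 1000 nt, of which 94.2% to 95.0% were whole within 0.2 reads, and reads per gene were recovered from it. Gene models came from GENCODE M21. The fit was tested on simulated data.

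The members, the pathway lists and the markers were chosen with earlier results of these data known. Every member is named, and of each role in the pathway the most abundant genes and those whose groups do not overlap; Smad1, Nbl1, Bambi, Msx1, Msx2 and Tcf4 were named after their values were seen. Alternatives covered scaling, pseudocount, filters, a replicate block, limma-voom, the main transcript alone and leaving out each library.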

Additional observations from a re-analysis of the deposited data

How the results depend on the processing

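The fit had 2 residual degrees of freedom, and the values of Smad6 rest on 26 to 111 reads. Of 119 member differences computed under an alternative, 106 kept their direction and 13 turned, 11 of these when a library was left out. The replicate block and the changed filters alter only the error of a difference. Their differences equal the main ones, could not turn, and are counted among the 106. Smad7 turned to -0.132 with the most abundant transcript only and to -0.096 with limma-voom on recovered reads. Smad6 had no value with a filter of 5 FPKM. When a library was left out, differences ranged from -0.237 to 0.578 for Id1, -0.573 to 0.334 for Bmp2, -0.003 to 0.56 for Bmp4, -0.361 to 0.13 for Bmp7, -0.203 to 0.342 for Bmpr1a, -0.212 to 0.403 for Smad6 and -0.165 to 0.408 for Smad7; the cause was not tested. Such fits leave 1 library in a group, which is assumed to vary like the other group, and they called 9 to 71 of 13817 genes, with 0 members and 0 of the other pathway genes in each. The alternatives of scaling, pseudocount, filter, limma-voom and main transcript alone each called 0 genes.

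With the replicate number as a block, limma called 900 of 13817 genes (6.51%), 626 of them higher in cKO, and 1 of 10 members: Id2, lower in cKO (-0.51 ± 0.12; adjusted p = 0.0426). Id3 had an adjusted p of 0.0979 and the other 8 members lay between 0.372 and 0.786, and 0 of the 32 other pathway genes passed. The labels do not say that the numbers pair the libraries. Deviations from the group means of control 1 and cKO 1 correlated across genes at r = 0.72, a hint from the data and not from the design, and genes are not independent replicates. The adjusted p of Id2 under the other alternatives was 0.817 to 1.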
